A study of Homo sapiens with 11 samples.

Results

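The galectin family genes described here are LGALS1, LGALS3, LGALS8, LGALS9, LGALS12 and LGALSL, 6 of the 58037 genes in the count table and 6 of the 18908 that passed the filter on low counts. They were chosen by symbol with earlier results of these data known, and the values in view were the changes on FHD-286 in both lines, where LGALS12 was already known among the largest falls. The changes on FHD-286 of these genes are therefore given as a description. RNA was sequenced from human acute myeloid leukaemia (AML) cells in 11 libraries. These were OCI-AML3 exposed to 100 nM FHD-286 for 16 h (n = 3), OCI-AML3 controls (n = 3), OCI-AML3-FLT3-ITD exposed in the same way (n = 2) and OCI-AML3-FLT3-ITD controls (n = 3). OCI-AML3 is a long-established line, and the second one is named for the internal tandem duplication (ITD) of the receptor tyrosine kinase FLT3. FHD-286 inhibits the ATPases BRG1 (SMARCA4) and BRM (SMARCA2), which power BAF complexes that move nucleosomes. Both lines grew in RPMI medium with serum, and the labels do not say how the FLT3-ITD line was made, whether it is 1 clone, or whether controls received a vehicle. Nor do they say that replicates came from separate cultures, so p-values measure the spread between these libraries, which may be technical.

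Galectins are lectins that bind β-galactosides on glycoproteins and glycolipids. They are made in the cytosol, leave the cell by a route outside the classical secretory pathway, and link glycosylated receptors at the surface of the same or neighbouring cells. Prototype galectins such as galectin-1 carry a single carbohydrate recognition domain, the chimeric galectin-3 joins such a domain to a flexible tail, and tandem-repeat galectins (galectin-8, galectin-9 and galectin-12) carry a pair of domains in 1 chain. In AML, galectin-1 and galectin-9 are known as products of leukaemic cells that act on T cells, while galectin-3 and galectin-8 also mark damaged endosomes and lysosomes from inside the cell.

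The library labelled control replicate 2 of the FLT3-ITD line stood apart from its group. Its FLT3 level was 53.4 CPM (counts scaled to the size and composition of each library), against 178 and 203 CPM in the other FLT3-ITD controls and 41.1 to 43.3 CPM in OCI-AML3 controls. Its log2 CPM over all genes tested correlated at 0.979 to 0.984 with OCI-AML3 controls and at 0.957 and 0.960 with the other controls of its own line. It was kept under its label, and results that rest on it are given with and without it. Total counts ran from 58397190 to 79172389 per library, and 3 counts corresponded to 0.0366 to 0.0548 CPM, a limit that covers counting error only. All 10 myeloid blast markers were detected, the 3 B cell markers summed to 0.168 to 1.52 CPM per library, and the 3 T cell and 4 stromal and epithelial markers summed to at most 0.212 CPM in any library, with CD3E and CD2 at 0 in all. Of the myeloid markers, 9 were called lower and 1 (PTPRC) higher on FHD-286 in OCI-AML3 (adjusted p under 0.05, edgeR). Of all genes tested, 21.5% were called lower and 19.8% higher there. In the FLT3-ITD line 9 were called lower, where 14.9% of all genes were. The 10 markers summed to 2630 to 2782 CPM in treated against 6156 to 6969 CPM in control OCI-AML3 libraries. In the FLT3-ITD line they summed to 1774 to 1799 CPM in treated against 4856 to 5753 CPM in control libraries. Their part in the changes of the galectin genes was not tested.

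On FHD-286, LGALS12 and LGALS9 fell to a small part of their control level in both lines, LGALS1 and LGALSL rose, and LGALS3 and LGALS8 were not called. A gene was called where its adjusted p was under 0.05 in edgeR's quasi-likelihood test. In OCI-AML3, 4 of the 6 genes were called, 2 higher and 2 lower, where 41.3% of all genes tested were called (19.8% higher and 21.5% lower). In the FLT3-ITD line the same 4 genes were called in the same directions, where 30.5% of all genes were called (15.6% higher and 14.9% lower). Since these contrasts were in view when the genes were chosen, nothing is read from these counts. In bulk RNA, fewer cells that express a gene and less RNA per cell cannot be told apart.

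**Figure D1:**
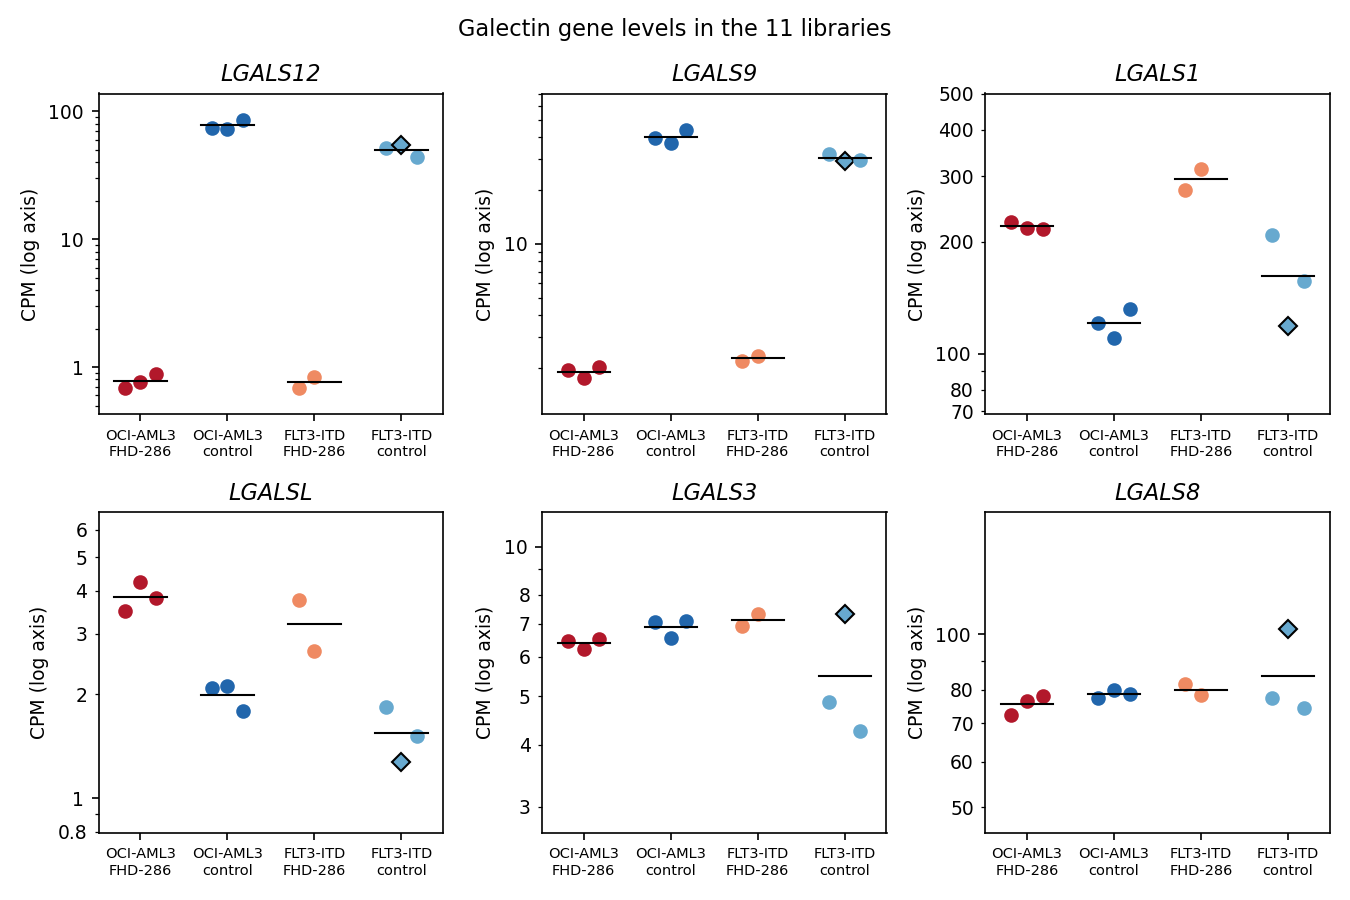
CPM of each galectin gene (log axis) in every library, with treated groups left of their controls, points for libraries, lines for group means and a black-edged diamond for the library labelled control replicate 2 of the FLT3-ITD line. LGALS12 lies between 0.684 and 0.881 CPM in all 5 treated libraries and at 44.0 CPM or more in all 6 controls.

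LGALS1 encodes galectin-1, a dimeric prototype galectin that can trigger the death of activated T cells. The gene lies at chr22:37675608-37679806 on the plus strand (GRCh38, GENCODE 29). In OCI-AML3 its level was 226, 218 and 217 CPM in treated libraries, against 121, 110 and 132 CPM in controls. FLT3-ITD cells had 276 and 313 CPM with FHD-286, against 208, 119 and 157 CPM in controls. Treated and control libraries did not overlap in either line, but FLT3-ITD controls were spread widely, at 161 ± 45.1 CPM (SD, n = 3), while OCI-AML3 controls were at 121 ± 10.9 CPM (SD, n = 3). LGALS1 rose by 0.86 on the log2 scale (standard error, SE, 0.16) in OCI-AML3 and by 0.87 (SE 0.18) in the FLT3-ITD line. When the 2 FLT3-ITD groups were fitted alone the value was 0.85, with an adjusted p of 0.0691 in edgeR's quasi-likelihood test. LGALS1 shared none of its transcript sequence with another gene in runs of 50 bases, and none of its exon length overlapped another gene.

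LGALSL encodes a galectin-related protein whose carbohydrate recognition domain has lost lactose binding. It lies at chr2:64453969-64461381 on the plus strand. Its level was 3.50, 4.23 and 3.81 CPM in treated OCI-AML3 libraries, against 2.08, 2.11 and 1.80 CPM in controls. LGALSL had 3.75 and 2.67 CPM in treated FLT3-ITD libraries, against 1.84, 1.27 and 1.51 CPM in controls of that line. The groups did not overlap in either line, at 88 to 326 counts per library. LGALSL rose by 0.95 (log2, SE 0.19) in OCI-AML3 and by 1.06 (SE 0.21) in the FLT3-ITD line. The FLT3-ITD value was 0.79 without treated replicate 1 and 1.04 when those groups were fitted alone, with adjusted p of 0.0568 and 0.0764 in edgeR's quasi-likelihood test.

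LGALS3 encodes galectin-3, the chimeric galectin, which is secreted by myeloid cells and gathers on damaged lysosomes. It lies at chr14:55124110-55145413 on the plus strand. Its level was 6.47, 6.23 and 6.52 CPM in treated OCI-AML3 libraries, against 7.05, 6.56 and 7.09 CPM in controls. FLT3-ITD cells had 6.94 and 7.32 CPM with FHD-286, against 4.87, 7.33 and 4.26 CPM in controls. The one high FLT3-ITD control was the library labelled replicate 2, which lay at the level of the treated libraries and above every OCI-AML3 control. The log2 fold changes were -0.11 (SE 0.18) in OCI-AML3 and 0.38 (SE 0.20) in the FLT3-ITD line, with no call in either. Without that library the FLT3-ITD value was 0.65 (SE 0.11) and was called higher.

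LGALS8 encodes galectin-8, a tandem-repeat galectin that binds glycans exposed on ruptured endosomes and recruits the autophagy receptor NDP52. It lies at chr1:236518000-236552981 on the plus strand. Its level was 72.3, 76.7 and 78.0 CPM in treated OCI-AML3 libraries, against 77.4, 80.0 and 78.8 CPM in controls. LGALS8 had 81.8 and 78.4 CPM in treated FLT3-ITD libraries, against 77.5, 102 and 74.5 CPM in controls of that line. All libraries lay between 72.3 and 81.8 CPM except the one labelled FLT3-ITD control replicate 2, which held the value of 102 CPM. The log2 fold changes were -0.06 (SE 0.10) in OCI-AML3 and -0.08 (SE 0.12) in the FLT3-ITD line, with no call in either. Their sign turned with the scaling, to 0.10 in OCI-AML3 and 0.03 in the FLT3-ITD line under library totals. LGALS8 shared 30.6% of its exon length with other genes, among them HEATR1 and LGALS8-AS1, and the counts of these genes cannot be told apart there. HEATR1, a nucleolar protein of ribosome production, fell by 0.55 (log2, SE 0.11) in OCI-AML3, at 129 CPM in treated and 189 CPM in control libraries.

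LGALS9 encodes galectin-9, a tandem-repeat galectin and ligand of TIM-3, an inhibitory receptor of T cells. It lies at chr17:27629798-27649560 on the plus strand. Its level was 1.94, 1.76 and 2.03 CPM in treated OCI-AML3 libraries, against 39.4, 37.0 and 43.8 CPM in controls. LGALS9 had 2.20 and 2.36 CPM in treated FLT3-ITD libraries, against 31.9, 29.1 and 29.7 CPM in controls of that line. Treated libraries were far below controls in both lines, and the library labelled FLT3-ITD control replicate 2 lay with the other controls of its label. LGALS9 fell by 4.39 (log2, SE 0.11) in OCI-AML3 and fell by 3.73 (SE 0.12) in the FLT3-ITD line, which placed it 84th and 282nd from the lowest among 18908 genes. It was still detected, since each treated library held 136 to 193 of its counts.

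The genome holds near copies of LGALS9, and 13.2% of its 50-base transcript runs also occurred in LGALS9B, LGALS9C, the pseudogene LGALS9DP or 1 further annotated locus, so counts of the copies are uncertain. A further overlapping gene shared 5.15% of its exon length. The RefSeq windows from 250 bases before to 50 after the annotated start (GRCh38.p14) are printed for LGALS9 and its copy LGALS9C. They lie at chr17:27630938-27631237 and chr17:18476539-18476838, both on the plus strand. Capitals mark their longest shared run, of 123 bases, while the longest run that LGALS9 shared with the LGALS9B window was 63 bases. The windows lie mostly before the start, so these runs do not measure shared reads.
LGALS9: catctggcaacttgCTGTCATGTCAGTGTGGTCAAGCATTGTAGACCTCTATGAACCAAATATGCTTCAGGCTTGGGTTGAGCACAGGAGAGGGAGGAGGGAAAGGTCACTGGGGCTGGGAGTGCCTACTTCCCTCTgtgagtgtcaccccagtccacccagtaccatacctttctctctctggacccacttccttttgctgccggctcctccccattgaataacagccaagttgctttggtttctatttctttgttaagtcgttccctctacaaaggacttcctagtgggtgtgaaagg
LGALS9C: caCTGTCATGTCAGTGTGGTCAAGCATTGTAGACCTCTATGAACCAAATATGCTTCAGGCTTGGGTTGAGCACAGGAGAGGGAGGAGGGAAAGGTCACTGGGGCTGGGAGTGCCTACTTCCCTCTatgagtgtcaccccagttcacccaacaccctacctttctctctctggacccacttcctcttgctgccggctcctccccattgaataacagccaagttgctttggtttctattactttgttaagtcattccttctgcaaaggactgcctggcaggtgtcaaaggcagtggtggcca
The copies held few reads. LGALS9C had 0 counts in each of the 5 treated libraries, against 1, 2 and 1 in OCI-AML3 controls and 6, 2 and 6 in FLT3-ITD controls. LGALS9B also had 0 counts in each treated library, against 1, 1 and 5 in OCI-AML3 controls and 2, 1 and 1 in FLT3-ITD controls. Neither passed the filter on low counts, and 0 counts allow up to 0.0366 to 0.0412 CPM in a treated library.

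The RefSeq table listed windows for 4 of the 6 genes (LGALS3, LGALS8, LGALS9 and LGALSL). For contrast with LGALS9, which fell, the window of LGALSL, which rose, is printed from chr2:64453912-64454211 on the plus strand. Capitals mark GAGGAA, a form of the core of the sites of PU.1, the myeloid ETS factor encoded by SPI1.
LGALSL: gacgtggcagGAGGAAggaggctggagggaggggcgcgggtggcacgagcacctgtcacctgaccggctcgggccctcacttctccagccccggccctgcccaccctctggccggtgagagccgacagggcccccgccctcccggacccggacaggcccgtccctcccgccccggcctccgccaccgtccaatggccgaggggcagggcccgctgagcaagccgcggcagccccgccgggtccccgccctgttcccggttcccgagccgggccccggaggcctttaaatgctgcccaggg
GAGGAA was searched on both strands and was present once in LGALSL, in 2 of the 3 windows of LGALS8, and in none of LGALS9 or LGALS3, and 27.9% of 35116 windows of the same length held it. TTGCNNAA, a core of C/EBP sites, was in none of these windows and in 10.5% of all windows of that length. The LGALS9C window printed above and that of LGALS9B each held 1 GAGGAA and 1 TTGCNNAA, which did not overlap, and a match is a description of the letters. Other forms of these cores were not searched, so a window without a match may still hold such a site. SPI1 itself had 42.2, 49.1 and 42.2 CPM in treated OCI-AML3 libraries against 310, 303 and 345 CPM in controls, and 23.1 and 24.1 CPM in treated FLT3-ITD libraries against 316, 284 and 271 CPM in controls. SPI1 thus fell in both lines with no overlap of groups. A link between its fall and the changes of the galectin genes was not tested.

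LGALS12 encodes galectin-12, a tandem-repeat galectin known from adipocytes, where it sits on lipid droplets, and from myeloid leukaemia cells. It lies at chr11:63506084-63516774 on the plus strand. Its level was 0.684, 0.765 and 0.881 CPM in treated OCI-AML3 libraries, against 73.7, 72.9 and 86.3 CPM in controls. LGALS12 had 0.687 and 0.830 CPM in treated FLT3-ITD libraries, against 51.4, 54.3 and 44.0 CPM in controls of that line. The 5 treated libraries of both lines lay at about the same low level, with 50 to 68 counts each against 3522 to 4806 counts in controls. LGALS12 fell by 6.64 (log2, SE 0.15) in OCI-AML3 and fell by 6.03 (SE 0.18) in the FLT3-ITD line, 17th and 84th from the lowest of 18908 genes. It shared no run of 50 bases with another gene's transcripts and no exon length with another gene.

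**Figure D2:**
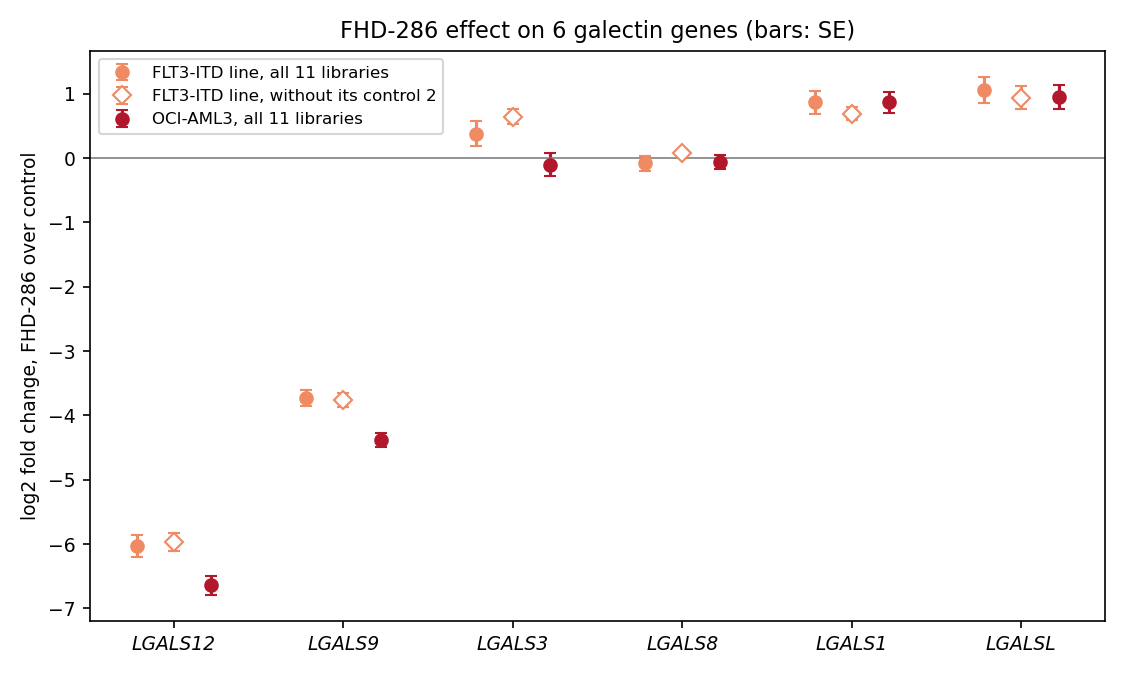
Log2 fold change of FHD-286 over control with its SE, in the FLT3-ITD line with all 11 libraries (filled, orange), in the FLT3-ITD line without the library labelled control replicate 2 (open diamonds) and in OCI-AML3 (filled, red). LGALS12 and LGALS9 lie below -3.5 in every fit, and the LGALS3 value in the FLT3-ITD line moves to 0.65 without that library, against 0.38 with it.

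By CPM per kb of exon, the galectin transcript next in abundance to LGALS1 was LGALS8 with FHD-286 and LGALS12 in controls. Levels between genes were compared on this measure, whose exon length joins all annotated exons of a gene. That length can exceed the transcripts present, so the order of the genes depends on it. In treated OCI-AML3 libraries LGALS1 averaged 200 ± 4.56, LGALS8 7.79 ± 0.308, LGALS3 2.67 ± 0.0654, LGALSL 0.961 ± 0.0917, LGALS12 0.342 ± 0.0438 and LGALS9 0.335 ± 0.0241 CPM per kb (SD, n = 3). In OCI-AML3 controls the order was LGALS1 with 110 ± 9.92, LGALS12 with 34.2 ± 3.32, LGALS8 with 8.11 ± 0.133, LGALS9 with 7.02 ± 0.605, LGALS3 with 2.88 ± 0.123 and LGALSL with 0.499 ± 0.0434 CPM per kb (SD, n = 3). On this measure LGALS12 was second in controls and level with LGALS9 at the end of the order in treated libraries. There the values of these genes lay within each other's spread. In CPM, without the exon lengths of 5714 bases (LGALS9) and 2270 bases (LGALS12), treated OCI-AML3 libraries averaged 1.91 for LGALS9 and 0.777 for LGALS12. The other neighbours in these orders differed by more than their SDs, which do not cover error in the exon length.

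In treated FLT3-ITD libraries LGALS1 averaged 268 ± 23.6, LGALS8 8.25 ± 0.246, LGALS3 2.97 ± 0.114, LGALSL 0.802 ± 0.190, LGALS9 0.398 ± 0.0195 and LGALS12 0.334 ± 0.0446 CPM per kb (SD, n = 2). In FLT3-ITD controls LGALS1 averaged 147 ± 41.0, LGALS12 21.98 ± 2.34, LGALS8 8.72 ± 1.55, LGALS9 5.29 ± 0.258, LGALS3 2.29 ± 0.679 and LGALSL 0.385 ± 0.0717 CPM per kb (SD, n = 3). The order in controls was the same as in OCI-AML3. As a share of the summed level of the 6 genes, LGALS12 made up 0.139, 0.160 and 0.185% in treated OCI-AML3 libraries, against 20.2, 21.4 and 21.5% in controls. In the FLT3-ITD line it made up 0.114 and 0.123% in treated libraries, against 9.92, 15.8 and 10.9% in controls. The summed level was 210 to 217 CPM per kb in treated against 150 to 177 CPM per kb in control OCI-AML3 libraries, so that it was higher with FHD-286, as LGALS1 is.

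**Figure D3:**
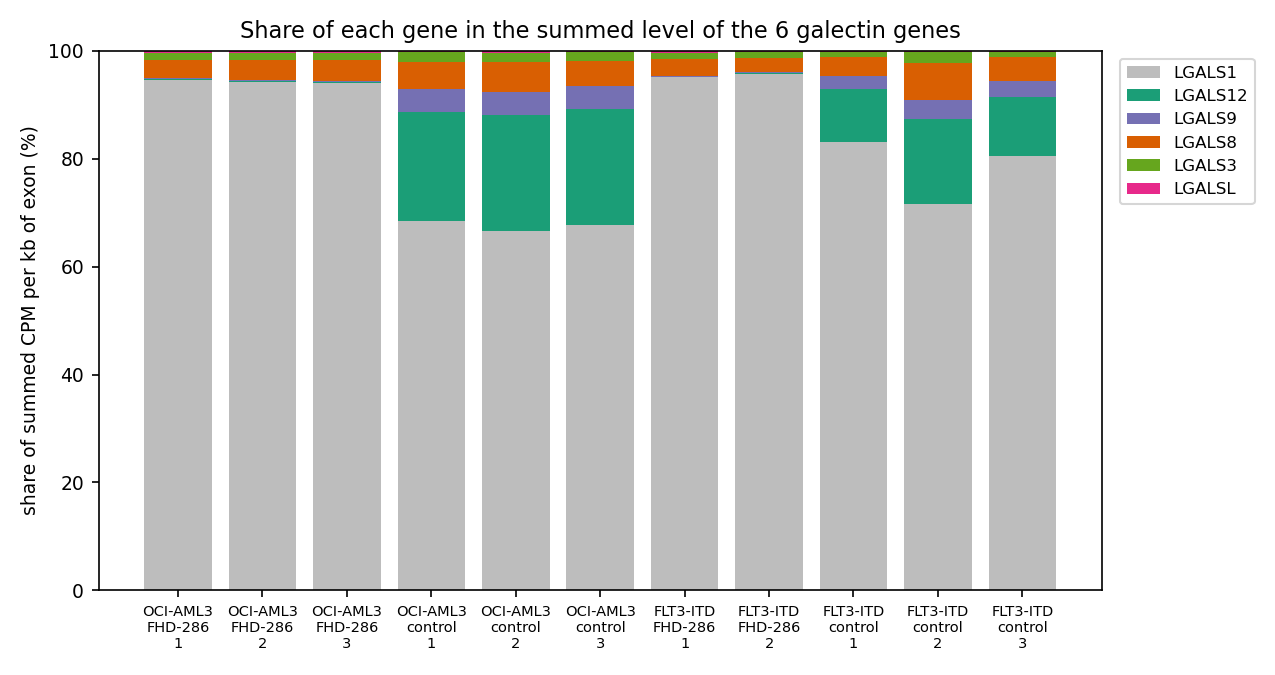
Share of each gene (%) in the summed CPM per kb of exon of the 6 galectin genes, 1 bar per library, with treated libraries left of controls in each line. LGALS1 makes up 94.1% or more in every treated library, and LGALS12 is visible in controls, at 9.92 to 21.5%.

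The difference between the FHD-286 effects of the lines asks whether these genes responded by unequal amounts; it rests on the same libraries in which the genes were chosen. LGALS9 alone was called, 1 of 6, where 3.36% of all genes were. Its fall was smaller in the FLT3-ITD line by 0.66 (log2, SE 0.14; Benjamini-Hochberg adjusted p = 0.0367 from edgeR). The LGALS12 difference had the same sign, 0.61 (SE 0.20), and was not called (adjusted p = 0.141, edgeR). The differences of the other genes were 0.00 for LGALS1 (SE 0.25), 0.11 for LGALSL (SE 0.28), 0.49 for LGALS3 (SE 0.27) and -0.02 for LGALS8 (SE 0.16). The LGALS9 call was lost in a fit without a filter on low counts (adjusted p = 0.102, edgeR) and when any of 9 libraries was left out, with adjusted p of up to 0.144 over the single omissions. Without the library labelled FLT3-ITD control replicate 2, LGALS3 (0.75, adjusted p = 0.000676), LGALS9 (0.63, adjusted p = 0.00412) and LGALS12 (0.67, adjusted p = 0.0355, edgeR) were called, 3 of 6, where 17.0% of all genes were.

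LGALS12 and LGALS9 were lower in FLT3-ITD controls than in OCI-AML3 controls, 2 of 6 genes called, a share near the 28.0% of all genes called. LGALS12 averaged 49.9 ± 5.31 CPM in FLT3-ITD controls and 77.6 ± 7.54 CPM in OCI-AML3 controls (SD, n = 3 each), a log2 difference of -0.64 (SE 0.11; adjusted p = 0.00314, edgeR). LGALS9 averaged 30.3 ± 1.48 CPM in FLT3-ITD controls and 40.1 ± 3.46 CPM in OCI-AML3 controls (SD, n = 3 each), a difference of -0.41 (SE 0.09; adjusted p = 0.00962, edgeR). Neither gene's control groups overlapped between the lines. The LGALS9 call was lost when the 2 groups were fitted alone, at -0.35 (adjusted p = 0.0582, edgeR), while LGALS12 was called in all 19 alternatives.

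Of the other genes in untreated cells, LGALS1 differed by 0.42 (log2, SE 0.16; adjusted p = 0.0822, edgeR), LGALS3 by -0.33 (SE 0.18; adjusted p = 0.190), LGALSL by -0.37 (SE 0.19; adjusted p = 0.169) and LGALS8 by 0.10 (SE 0.11; adjusted p = 0.484). The calls of LGALS1 and LGALS3 changed with 1 library, and the call of LGALS1 also changed with the scaling, the filter and the test. Without that labelled FLT3-ITD control replicate 2, LGALS1 was higher by 0.60 (adjusted p = 2.09e-05) and LGALS3 lower by -0.60 (adjusted p = 5.64e-05, edgeR), and 4 of 6 genes were called, where 49.4% of all genes were. LGALS1 was also called under 5 of the other alternatives, among them the Wald test of DESeq2 (0.42, adjusted p = 0.0463).

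Between treated lines, LGALS1 had the largest difference of the 6 genes and LGALS12 the smallest. Of the 6, 0 were called in treated FLT3-ITD against treated OCI-AML3 libraries by edgeR's quasi-likelihood test, where 26.0% of all genes were; 2 had an unadjusted p under 0.05, and DESeq2 called 0. With the treated groups fitted alone LGALS1 was called (0.42, adjusted p = 1.17e-05, edgeR), as it was without FLT3-ITD control replicate 1 (0.42, adjusted p = 0.0255). LGALS1 differed by 0.42 (log2, SE 0.18; adjusted p = 0.115, edgeR), LGALS9 by 0.25 (SE 0.11; adjusted p = 0.127) and LGALS12 by -0.03 (SE 0.17; adjusted p = 0.923). LGALSL differed by -0.26 (SE 0.21), LGALS3 by 0.15 (SE 0.20) and LGALS8 by 0.08 (SE 0.12). LGALS12 was thus called between untreated lines and had a difference near 0 between treated ones, at 50 to 68 counts per treated library. The direct contrast of its FHD-286 effects in the lines was not called in the fit of all groups (0.61). It was called in 1 of 18 alternatives, without the library labelled FLT3-ITD control replicate 2 (0.67, adjusted p = 0.0355, edgeR). A loss of the line difference on FHD-286 is therefore not shown. LGALS1 was higher in both treated FLT3-ITD libraries than in any treated OCI-AML3 library, and it was called without the library labelled FLT3-ITD control replicate 2, which enters this contrast only through the shared spread (0.42, adjusted p = 0.000851, edgeR; 46.9% of all genes called).

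For the FHD-286 effects themselves, leaving out that library gave the same 4 of 6 calls in OCI-AML3, where 58.8% of all genes were then called. In the FLT3-ITD line LGALS3 joined the 4, which made 5 of 6, where 49.0% of all genes were called. The LGALS12 value there was -5.97, LGALS9 -3.76, LGALS1 0.69 and LGALSL 0.94.

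The other 11 galectin genes gave few or no reads. Of these, 6 had no count in any library: LGALS7, LGALS7B, LGALS13, LGALS14, LGALS16 and CLC, the Charcot-Leyden crystal galectin of eosinophils. LGALS4, a tandem-repeat galectin of the gut lining, alone passed the filter, with 134 counts in all. It had 0.214, 0.117 and 0.143 CPM in treated OCI-AML3 libraries against 0.0914, 0.156 and 0.108 CPM in controls, and 0.110 and 0.244 CPM in treated FLT3-ITD libraries against 0.227, 0.274 and 0.175 CPM in controls. These groups overlapped, and LGALS4 was not called in either line (log2 fold change 0.40, SE 0.44, in OCI-AML3 and -0.33, SE 0.45, in the FLT3-ITD line). LGALS2, a prototype galectin, had 5 counts in each treated FLT3-ITD library against 7, 0 and 10 in controls of that line, with 0 in all treated OCI-AML3 libraries and 1, 0 and 1 in controls. The FLT3-ITD control without LGALS2 reads was the library labelled replicate 2. GRIFIN, a galectin-like protein of the lens, had 7 counts over 3 libraries.

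The genes whose log2 CPM most resembled each galectin gene over the 11 libraries were taken from 10521 genes (10522 for LGALSL) whose log2 CPM averaged 2 or more. The libraries form treated and control groups, so a correlation here mostly states a shared difference between those groups. LGALS9 and LGALS12 were closest to each other (r = 0.998, the same without the library labelled FLT3-ITD control replicate 2). LGALS12 was next closest to RIN1, a Ras effector (0.998), and CLEC11A, a secreted growth factor of blood progenitors (0.997). LGALS9 was next closest to CBFA2T3, a transcriptional corepressor of the ETO family (0.997), and PPP1R27 (0.996). LGALS1 resembled CYSTM1 (0.986), MXRA7 (0.981) and PTMS (0.980), and LGALSL resembled PPP6C, a phosphatase catalytic subunit (0.986), GTDC1 (0.983) and TMEM9B (0.979).

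LGALS3 was closest to HSD17B7 (r = 0.922) and ERG28 (0.894), both of cholesterol synthesis, and ZNF266 (0.888), and these values were 0.923, 0.906 and 0.883 without the library labelled FLT3-ITD control replicate 2. LGALS8 was closest to STARD4, a sterol carrier (0.932), BNIP3, a mitophagy receptor (0.928), and ADSS1 (0.903). The LGALS8 values rested on that 1 library, and without it they were 0.598, 0.441 and 0.0585.

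The falls of LGALS12 and LGALS9 were not seen in the few tested genes whose start lay within 250 kb of theirs. LGALS12 had 3 such genes, with starts 111 to 175 kb away, and none was called lower. Of all genes tested, 21.5% were called lower in OCI-AML3 and 14.9% in the FLT3-ITD line. Whether the falls were local was not tested. RTN3, a reticulon of the endoplasmic reticulum whose start lies 175 kb away, rose by 0.44 (log2, SE 0.08; adjusted p = 0.00149, edgeR) in OCI-AML3 and by 0.43 (SE 0.09; adjusted p = 0.00492) in the FLT3-ITD line. The FLT3-ITD call of RTN3 was lost with the 2 groups fitted alone (adjusted p = 0.101, edgeR) and without treated replicate 1 (adjusted p = 0.0538). PLAAT3, a phospholipase 111 kb away, averaged 0.375 CPM in treated against 0.111 CPM in control OCI-AML3 libraries and 0.589 CPM in treated against 0.0497 CPM in control FLT3-ITD libraries. It rose by 1.75 (SE 0.57; adjusted p = 0.0294, edgeR) and by 3.52 (SE 0.64; adjusted p = 0.00209), but the OCI-AML3 call was lost without any 1 of the 6 libraries of that line, with adjusted p of up to 0.106, and the FLT3-ITD call was lost with the 2 groups fitted alone (adjusted p = 0.0524, edgeR). ATL3, 166 kb away, was not called in either line (-0.07, SE 0.06, and -0.04, SE 0.07).

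LGALS9 had 1 tested neighbour, KSR1, a scaffold of the RAF-MEK-ERK pathway 173 kb before it. KSR1 rose by 1.29 (log2, SE 0.14; adjusted p = 3.47e-05, edgeR) in OCI-AML3 and was not called in the FLT3-ITD line, at 21.1 CPM in treated against 8.63 CPM in control OCI-AML3 libraries and 9.95 against 9.70 CPM in the FLT3-ITD line. LGALS1 had 15 neighbours, of which 2 were higher and 2 lower in OCI-AML3, where 41.3% of all genes were called, and 2 higher and 4 lower in the FLT3-ITD line, where 30.5% were. The called neighbours of largest change were CARD10 in OCI-AML3 (-1.08, SE 0.33; adjusted p = 0.0222, edgeR) and MFNG in the FLT3-ITD line (-2.89, SE 0.89; adjusted p = 0.0317, edgeR), whose value was -0.91 without the library labelled control replicate 2. Of 8 neighbours of LGALS3, 2 were higher and 1 lower in OCI-AML3, where 41.3% of all genes were called. In the FLT3-ITD line 3 were higher, where 30.5% of all genes were called. The largest change among those called was that of GCH1, the entry enzyme of tetrahydrobiopterin synthesis (1.11, SE 0.09, and 0.89, SE 0.10). LGALS8 and LGALSL had 3 neighbours each, with 1 lower for each gene in OCI-AML3, where 21.5% of all genes were called lower. These were HEATR1 (-0.55) near LGALS8 and AFTPH-DT (-4.11, SE 0.57) near LGALSL. AFTPH-DT averaged 0.0392 CPM in treated OCI-AML3 libraries, about the level of 3 counts, against 0.707 CPM in controls. In the FLT3-ITD line 1 was lower near LGALSL (RPL23AP37, a pseudogene, -0.81, SE 0.20) and none near LGALS8. Of all genes, 14.9% were called lower in that line.

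Galectins act through glycoproteins at the cell surface, and 24 of 30 listed ligands and counter-receptors were tested. In OCI-AML3, 9 rose and 7 fell, where 41.3% of all genes were called, with a median log2 fold change of -0.07 against 0.01 over all genes. In the FLT3-ITD line 5 rose and 8 fell, where 30.5% of all genes were called, with a median of -0.04 against -0.02. MERTK, a receptor of cell clearance that binds galectin-3, had 13.7, 12.9 and 13.9 CPM in treated OCI-AML3 libraries against 2.23, 2.30 and 2.17 CPM in controls, and 11.7 and 11.7 CPM in treated FLT3-ITD libraries against 3.29, 4.34 and 3.72 CPM in controls. It rose by 2.59 (SE 0.13; adjusted p = 2.85e-07, edgeR) and 1.63 (SE 0.13; adjusted p = 1.17e-05), with no overlap of groups. LGALS3BP, the secreted galectin-3-binding protein, had 1.34, 1.32 and 1.35 CPM in treated OCI-AML3 libraries against 4.35, 4.70 and 5.75 CPM in controls, and 1.03 and 0.915 CPM in treated FLT3-ITD libraries against 4.28, 5.33 and 4.40 CPM in controls. It fell by 1.88 (SE 0.16; adjusted p = 8.42e-06, edgeR) and fell by 2.26 (SE 0.19; adjusted p = 1.51e-05).

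VSIR, the checkpoint protein VISTA, had 67.9, 73.2 and 65.8 CPM in treated OCI-AML3 libraries against 130, 123 and 143 CPM in controls, and 27.6 and 28.8 CPM in treated FLT3-ITD libraries against 113, 132 and 104 CPM in controls. It fell by 0.93 (log2, SE 0.09; adjusted p = 2.88e-05, edgeR) and fell by 2.04 (SE 0.11; adjusted p = 1.44e-06). HAVCR2, which encodes TIM-3 and was singled out after its values were seen, had 0.241, 0.234 and 0.220 CPM in treated OCI-AML3 libraries against 0.0914, 0.0313 and 0.126 CPM in controls. It rose there by 1.49 (SE 0.52; adjusted p = 0.0391, edgeR) and was not called in the FLT3-ITD line (0.85, SE 0.54), at levels of 0.206 and 0.171 CPM in treated libraries against 0.113, 0.0433 and 0.150 CPM in controls. FCGR2A, an activating IgG receptor of myeloid cells, fell by 1.39 (SE 0.07; adjusted p = 3.79e-07, edgeR) and fell by 1.51 (SE 0.08; adjusted p = 1.27e-06), at 23.1 to 25.2 CPM in treated against 61.7 to 64.0 CPM in control OCI-AML3 libraries.

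Enzymes that build or trim the glycans that galectins read changed in both directions, with 31 of 32 tested. In OCI-AML3, 9 rose and 9 fell, where 41.3% of all genes were called, with a median log2 fold change of -0.04 against 0.01 over all genes. In the FLT3-ITD line 6 rose and 11 fell, where 30.5% were called, with a median of 0.01 against -0.02. Without the library labelled control replicate 2 these were 13 and 11, where 49.0% of all genes were called. FUT7, the α1,3-fucosyltransferase of selectin ligands, had 12.8, 15.1 and 12.9 CPM in treated OCI-AML3 libraries against 42.0, 37.9 and 45.9 CPM in controls, and fell by 1.62 (SE 0.11; adjusted p = 2.59e-06, edgeR). It fell by 1.6 (SE 0.13; adjusted p = 1.49e-05) in the FLT3-ITD line, and 58.7% of its exon length overlapped other genes. ST3GAL4, which caps galactose with α2,3-linked sialic acid, fell by 1.17 (SE 0.09; adjusted p = 4.77e-06, edgeR) and fell by 0.86 (SE 0.10; adjusted p = 0.000157). ST6GALNAC4, a sialyltransferase of O-glycans, fell by 0.96 (SE 0.10; adjusted p = 2.72e-05, edgeR) and fell by 1.006 (SE 0.11; adjusted p = 9.39e-05).

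Enzymes that rose included NEU1, the lysosomal sialidase, and B4GALT5, the galactosyltransferase of lactosylceramide. NEU1 had 92.7, 85.4 and 88.7 CPM in treated OCI-AML3 libraries against 61.3, 61.1 and 66.6 CPM in controls, and 75.0 and 84.0 CPM in treated FLT3-ITD libraries against 49.4, 51.4 and 45.1 CPM in controls. It rose by 0.50 (log2, SE 0.08; adjusted p = 0.000409, edgeR) and 0.71 (SE 0.08; adjusted p = 0.000142). B4GALT5 had 460, 459 and 441 CPM in treated OCI-AML3 libraries against 247, 245 and 245 CPM in controls, and rose by 0.88 (SE 0.06; adjusted p = 3.14e-06, edgeR). In the FLT3-ITD line it had 236 and 215 CPM in treated libraries against 186, 204 and 200 CPM in controls, a value of 0.20 (SE 0.07) that was not called (adjusted p = 0.0548, edgeR) and was called under 3 alternatives, at adjusted p of 0.0103 to 0.0473.

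**Figure D4:**
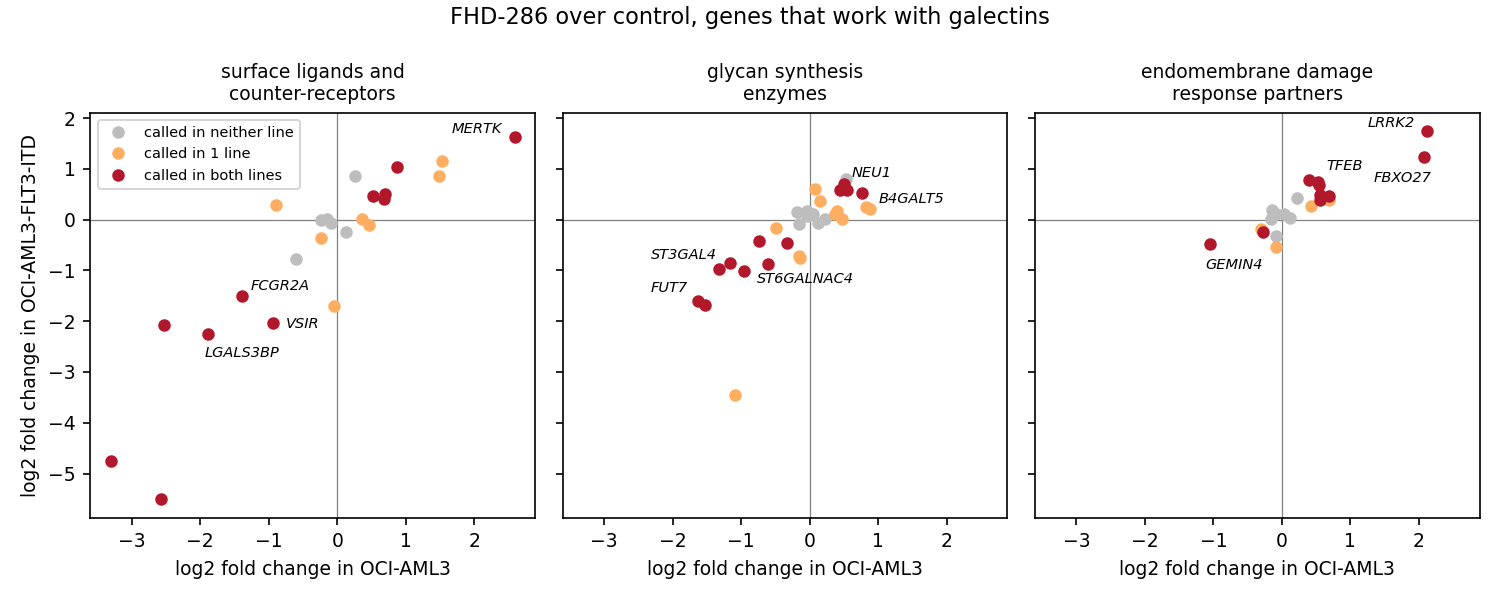
Log2 fold change of FHD-286 over control in the FLT3-ITD line (y axis) against OCI-AML3 (x axis) for each tested gene of 3 lists, coloured by the number of lines in which it was called and labelled for the genes named by p. Points lie mostly along the rising diagonal, and MERTK, LRRK2 and FBXO27 lie highest among the labelled genes.

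Of the listed partners of galectin-3 and galectin-8 in the response to damaged endosomes and lysosomes, 21 of 22 were tested. The list also includes GEMIN4, a component of the SMN complex, which is counted among the falls in both lines. In OCI-AML3, 10 rose and 3 fell, where 19.8% of all genes were called higher and 21.5% lower, with a median log2 fold change of 0.23 against 0.01 over all genes. In FLT3-ITD cells 8 rose and 3 fell, where 15.6% were called higher and 14.9% lower, with a median of 0.27 against -0.02. LRRK2, a kinase that acts at stressed lysosomes, had 1.66, 1.53 and 2.02 CPM in treated OCI-AML3 libraries against 0.420, 0.344 and 0.431 CPM in controls, and 2.09 and 2.33 CPM in treated FLT3-ITD libraries against 0.638, 0.621 and 0.724 CPM in controls. It rose by 2.12 (SE 0.19; adjusted p = 1.36e-05, edgeR) and 1.74 (SE 0.20; adjusted p = 0.000108), with no overlap of groups. FBXO27, a ubiquitin ligase subunit that recognises glycoproteins of damaged lysosomes, rose by 2.07 (SE 0.28; adjusted p = 0.00019, edgeR) and 1.24 (SE 0.29; adjusted p = 0.00877), and its FLT3-ITD call was lost without treated replicate 1 (adjusted p = 0.0564) and with the 2 groups fitted alone (adjusted p = 0.0995, edgeR). Other genes overlapped 10.4% of its exon length.

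TFEB, the transcription factor of lysosome genes, had 36.5, 31.1 and 33.3 CPM in treated OCI-AML3 libraries against 22.3, 21.8 and 26.3 CPM in controls, and 34.9 and 38.7 CPM in treated FLT3-ITD libraries against 25.5, 17.9 and 22.7 CPM in controls. It rose by 0.52 (log2, SE 0.13; adjusted p = 0.00884, edgeR) and 0.74 (SE 0.14; adjusted p = 0.00335), and the FLT3-ITD call was lost with the 2 groups fitted alone (adjusted p = 0.0532, edgeR). GEMIN4, a component of the SMN complex that binds galectin-1 and galectin-3 in nuclear extracts, fell by 1.05 (SE 0.07; adjusted p = 1.15e-06, edgeR) and fell by 0.48 (SE 0.07; adjusted p = 0.000753), at 84.6 to 86.2 CPM in treated against 168 to 191 CPM in control OCI-AML3 libraries. GEMIN4 was listed as a galectin partner although its known role lies in the assembly of splicing particles.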

How the data were processed

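RNA was sequenced in 11 libraries, and the authors deposited a table of unnormalised whole-number counts for 58037 Ensembl genes. STAR and build hg38 are named, per the submitters' processing notes. Counting program, strand setting and annotation are not given in the sources used here, and reads of overlapping or antisense genes may be mixed. Of the identifiers, 57388 were found in GENCODE 29, the source of symbols, coordinates and exon lengths. Low counts were removed by filterByExpr of edgeR, set to a count of 10 and a total of 15. TMM factors scaled the libraries, and edgeR 4.0.16 (R 4.3.3) fitted 1 mean per group to the counts; contrasts were tested two-sided with the quasi-likelihood test and Benjamini-Hochberg adjustment over 18908 genes. SE is the log2 fold change over the square root of F. The script was tested on simulated data. Depth was 58397190 to 79172389 counts per library.

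Members and lists were chosen with earlier results of these data known. Partners named are the 3 called genes of smallest p in each list and line, neighbours are tested genes within 250 kb, and likeness is Pearson's r over 11 libraries. Alternatives were other scalings, filters, the Wald test of DESeq2 1.42.0, fitting the compared groups alone, a replicate block and leaving out each library; lists and correlations without the library labelled control replicate 2 of the FLT3-ITD line were added after seeing the data. Replicate numbers were not shown to pair the libraries (deviations of same-numbered libraries correlated at -0.0288 to 0.122). With so few libraries per group this check cannot exclude pairing. One further marker list is not reported here.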

Additional observations from a re-analysis of the deposited data

Results flagged for a closer look

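The FHD-286 effect on LGALS9 was called different between the lines in the fit of all groups. The genes were chosen with these changes in view, so this is a description. The fall of LGALS9 was smaller in the FLT3-ITD line by 0.6565 on the log2 scale (adjusted p = 0.0367 in edgeR's quasi-likelihood test). It was -3.73 in the FLT3-ITD line and -4.39 in OCI-AML3. The sign was the same in all 18 alternatives, and the call held in 7 of them.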

How the results depend on the processing

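The falls of LGALS12 and LGALS9 and the rises of LGALS1 and LGALSL on FHD-286 kept their direction in all 19 alternatives. Over the 6 galectin genes and 5 comparisons, 511 values kept their direction and call, 28 changed their call and 25, none of them called, turned their sign. The number of genes called in OCI-AML3 stayed within 1.5 times of 7816. With the compared groups fitted alone it was 1618 for the FLT3-ITD line (5767 in the fit of all groups), 1736 for untreated lines (5289) and 9581 for treated lines (4916). For the difference between lines, 635 genes were called, against 1467 by DESeq2 and 349 with the replicate block, under which the LGALS9 difference was 0.6896 and was not called (adjusted p = 0.0597, edgeR); the replicate numbers are not shown to pair the libraries. Leaving out 1 library gave 2908 to 9140, 105 to 3177, 2914 to 9223 and 1909 to 8756 genes called for the FLT3-ITD line, the difference, untreated lines and treated lines. The highest of each came without the library labelled control replicate 2 of the FLT3-ITD line, when the common coefficient of variation was 0.0652, against 0.193 with it.

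Signs turned for values near 0. Under library totals, which moved the median of all genes in OCI-AML3 to 0.17 against 0.01, LGALS3 was 0.0482, LGALS8 0.0969 and ATL3 0.0851 in OCI-AML3, LGALS8 0.0257 and ATL3 0.063 in the FLT3-ITD line, and LGALS12 0.0154 between treated lines. Upper-quartile factors gave LGALS8 0.0103 in OCI-AML3. The LGALS1 difference was -0.0138 with DESeq2 size factors and with the DESeq2 test, -0.0838 with upper quartile, -0.0408 with totals, -0.0438 with no filter and -0.0322 with the strict filter. Single omissions gave ranges of -0.166 to 0.0752 (LGALS8), -1.01 to 0.12 (LGALS4) and -0.101 to 0.0178 (ATL3) for the FLT3-ITD effect, -0.176 to 0.228 (LGALS1), -0.108 to 0.133 (LGALS8) and -0.151 to 0.341 (LGALSL) for the difference, -0.0507 to 0.192 (LGALS8) between untreated lines and -0.177 to 0.0911 (LGALS12) between treated lines. The cause was not tested. Without the library labelled control replicate 2 of the FLT3-ITD line, 11 of 21 tested endomembrane genes were higher and 4 lower in each line. Of 24 tested surface genes, 9 were higher and 11 lower in OCI-AML3, and 5 and 10 in the FLT3-ITD line. In that fit 58.8% of all genes were called in OCI-AML3 and 49.0% in the FLT3-ITD line. These shares were 41.3% and 30.5% with all 11 libraries, so nothing is read from the larger counts of the lists.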
